A study of Mus musculus with 503 samples.

Results

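The insulin-like growth factors Igf1 and Igf2, their receptor Igf1r and the binding proteins Igfbp2 to Igfbp7 were followed in perivascular cells of the mouse spinal cord. They were taken by gene symbol, which gave 9 of the 56701 gene rows in the count matrix. The study traced cells that express the glutamate transporter GLAST (Slc1a3) and asked how perivascular cells respond to a complete spinal crush. The sample labels give female mice, whereas the study's reporting summary gives both sexes for its sequencing experiments. Single cells were sorted from GLAST-CreERT2;R26R-tdTomato;Pdgfrb-eGFP mice and read by Smart-seq3, a full-length single-cell RNA sequencing protocol. In this line tdTomato marks cells in which a tamoxifen-dependent Cre driven by GLAST has recombined, together with their progeny, and EGFP reports Pdgfrb, which pericytes, vascular smooth muscle cells and fibroblasts express. All groups carried the 3 alleles, on a C57BL/6J background in adult mice per the study's methods, and the outer meninges were removed before the tissue was dissociated. The 4 groups were tdTomato+EGFP+ and tdTomato-EGFP+ cells from uninjured cord and the same 2 sorts from the lesioned segment 3 days after spinal cord injury (SCI), as the sample labels give it. A sort cannot separate a cell that never expressed GLAST from a GLAST-expressing cell in which Cre did not act.

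IGF1 and IGF2 are secreted growth factors that act through the receptor tyrosine kinase IGF1R on growth, survival and differentiation. Outside the cell most IGF is held by IGF-binding proteins, which prolong its life, keep it from the receptor or release it when proteases cut them, and several of them also bind matrix or cell surfaces. Fibroblasts and vessel wall cells are known sources of these binding proteins in many tissues.

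The labels named 503 cells, of which 468 were kept. Summed counts ran from 25645409 to 38406035 per group. No label names an animal, so each group is 1 sample, no test was made, and the spread shown is that between plates. Uninjured cells came from plate 209 (65 tdTomato+EGFP+, 46 tdTomato-EGFP+) and plate 213 (72 and 60), and injured cells from plate 211 (88 and 58) and plate 215 (34 and 45), so the injury and the plate cannot be told apart, whereas both sorts stood on every plate. The 34 tdTomato+EGFP+ cells of plate 215 were shallow, with a median of 14770 counts against 328802 on plate 211. Levels are counts per 1000000 (CPM) of the summed counts of a group, with 95% exact Poisson intervals that, like the exact binomial intervals of shares below, cover counting error only. A difference is that of log2(CPM + 1), and a gene is called past 2-fold at 1 or more in size with the same sign on every plate or plate pair and at 10 CPM or more in the higher group. The comparisons share groups with one another and are therefore not independent.

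Promoter sequences show how unlike the members are at their starts, and that of Igfbp6, whose counts came mostly from fibroblast-like cells, is set beside that of Igf1r, which was detected in most cells of each group. Each window runs from 250 bases before to 50 bases after the RefSeq start (build GRCm38.p6, plus strand, 5′ to 3′), and capitals mark the CG dinucleotides. Igfbp6 is read from chr15:102143936-102144235 and Igf1r from chr7:67952007-67952306, both upstream of the gene start in GENCODE M21.
Igfbp6: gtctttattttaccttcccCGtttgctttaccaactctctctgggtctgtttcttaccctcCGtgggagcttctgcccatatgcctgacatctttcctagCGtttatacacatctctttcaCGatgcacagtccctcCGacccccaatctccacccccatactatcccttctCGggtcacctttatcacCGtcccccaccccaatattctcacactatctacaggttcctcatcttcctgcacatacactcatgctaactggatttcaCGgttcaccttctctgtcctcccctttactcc
Igf1r: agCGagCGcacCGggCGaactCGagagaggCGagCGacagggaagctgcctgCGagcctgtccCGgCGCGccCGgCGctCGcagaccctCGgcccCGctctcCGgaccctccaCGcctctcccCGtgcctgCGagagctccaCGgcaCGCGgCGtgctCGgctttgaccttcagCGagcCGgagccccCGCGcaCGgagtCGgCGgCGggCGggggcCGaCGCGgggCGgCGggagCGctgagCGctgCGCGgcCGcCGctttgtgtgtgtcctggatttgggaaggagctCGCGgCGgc
The Igf1r window holds 48 CG dinucleotides, a number that 1.22% of 32851 promoters of this length reach or exceed. The Igfbp6 window holds 8, against a median of 7 over the same promoters, and 54.2% hold as many or fewer. All 9 members matched the RefSeq table, with 13 windows, and the other members ranged from 2 in the most upstream window of Igf2 to 37 in that of Igfbp3. The letters TATAAA, searched on both strands, were found in the windows of Igfbp4 and Igfbp6. These are descriptions of the reference sequence and say nothing of which factors bind there.

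Clusters were made without the members and their pathway genes, so that the levels of the members did not enter the grouping. Of 6 clusters, cluster 4 (71 cells) was perivascular fibroblast-like, with all 8 fixed markers raised, cluster 5 (48 cells) was pericyte-like with 7 of 9, and cluster 6 (18 cells) was vascular smooth muscle-like with 5 of 6. Of the 48 cells of cluster 5, 47 were injured tdTomato-EGFP+ cells and none was uninjured. Cluster 2, with 59 and 51 uninjured tdTomato+EGFP+ and tdTomato-EGFP+ cells, and cluster 3, with 39 and 24, both raised 8 of 9 pericyte markers together with 5 of 5 endothelial markers and are left unnamed. Cluster 1 raised 6 of 6 cycling and 5 of 8 perivascular fibroblast markers and is also left unnamed. It also raised 4 of 7 stromal fibroblast markers (Tnc, Fn1, Col5a1 and Thbs2) and 2 of 6 smooth muscle markers (Acta2 and Tagln). It held most of the injured tdTomato+EGFP+ cells (99) and 18 tdTomato-EGFP+ cells of the same time. Its 19 uninjured cells were shallow, with medians of 2488 and 1923 counts in the 2 sorts, and are not read further.

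Over all kept cells pooled, fibroblast-like cells carried most of the counts of 6 of the 9 members. Cluster 4 held 61.5% of all Igf1 counts, 65.3% of Igf2, 92.98% of Igfbp2, 72.1% of Igfbp4, 83.6% of Igfbp5 and 93.9% of Igfbp6. The exceptions were Igfbp3, of which it held 36.7% and cluster 1 another 42.1%, Igfbp7 with 11.5% and the receptor Igf1r with 4.53%. The injured tdTomato+EGFP+ cells differed from the pool. There cluster 1 held 84.7% of the Igf1 counts, 61.1% of Igf2, 57.4% of Igfbp2, 61.2% of Igfbp4 and 74.97% of Igfbp5, against 15.3%, 38.6%, 42.6%, 38.5% and 24.2% in cluster 4, and Igfbp6 alone of the 6 lay mostly in cluster 4, with 79.3%. In clusters 2 and 3 Igf1, Igfbp4, Igfbp5 and Igfbp6 were far lower than in cluster 4. Igf1 was at 0.658 and 2.12 CPM there against 241 CPM in cluster 4, Igfbp4 at 3.38 and 6.06 against 262 CPM, Igfbp5 at 1.11 and 1.88 against 1820 CPM, and Igfbp6 at 1.98 and 0.866 against 2037 CPM. Igf2 differed from these, since it was also counted in clusters 2 and 3, at 83.3 and 112.8 CPM against 567 CPM in cluster 4. Perivascular fibroblast markers moved with the groups, with a summed level of 3620 and 1867 CPM in uninjured and 19718 and 8425 CPM in injured tdTomato+EGFP+ and tdTomato-EGFP+ cells, all 8 with a count in each group. The smooth muscle-like cluster held 60.7 CPM of Igfbp4 and 217 CPM of Igfbp5, with no count of Igf1, Igfbp2 or Igfbp3.

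**Figure D1:**
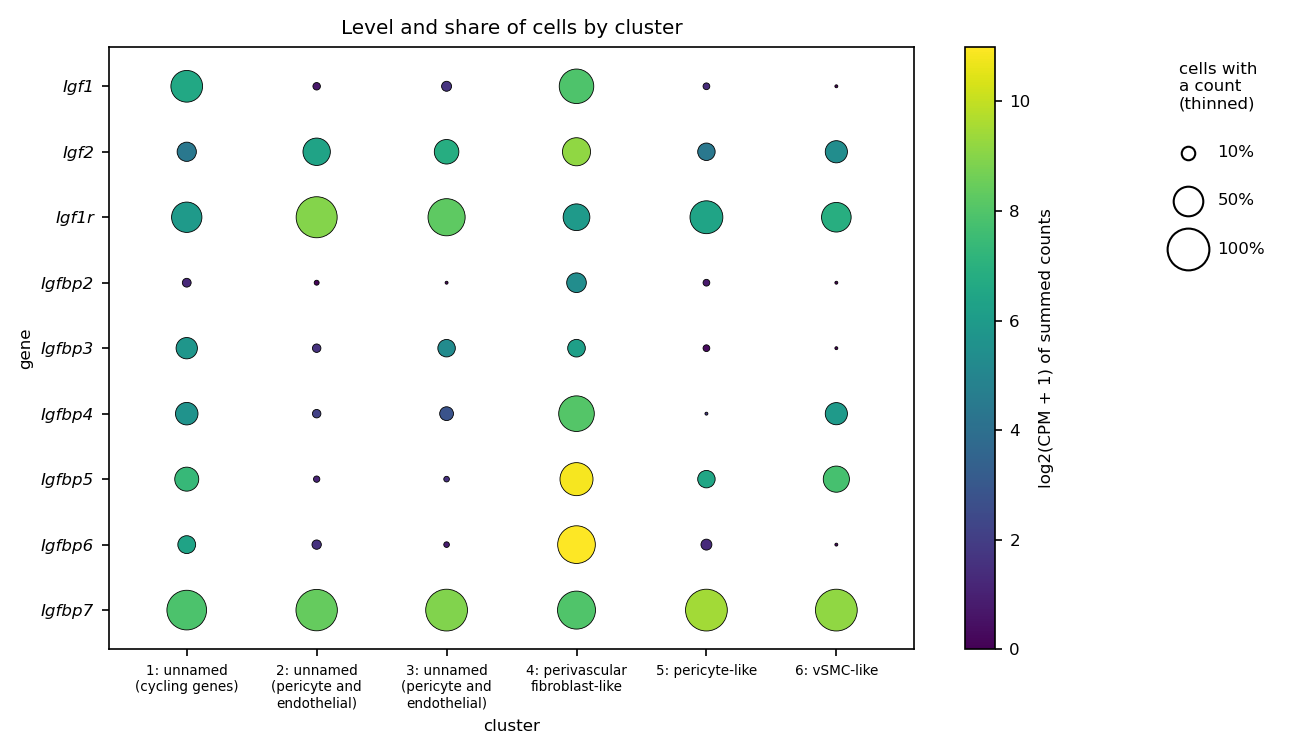
Members (vertical) by cluster (horizontal): the colour gives the level as log2(CPM + 1) of summed counts and the area of a circle the share of cells with a count at 20000 counts per cell. Cluster 4 has the highest level of Igf1, Igf2 and Igfbp2 to Igfbp6, cluster 2 of Igf1r (491 CPM) and cluster 5 of Igfbp7 (717 CPM).

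Read by comparison, the uninjured sorts differed past 2-fold in 4 members. Igf2, Igfbp2 and Igfbp3 were higher in tdTomato+EGFP+ cells, as were 4.31% of the 11198 genes tested, and Igfbp5 was lower, as were 3.61%. At 3 days no member was higher in tdTomato+EGFP+ cells, against 4.31% of the 10631 genes tested, and Igfbp5, Igfbp6 and Igfbp7 were lower among 8 members tested, against 17.9% of genes. After injury, tdTomato+EGFP+ cells had more Igfbp5, with 10.8% of 11429 genes higher, and less Igf2, Igf1r and Igfbp2, with 34.3% lower. That last share of members, 33.3%, lies close to the background of all genes.

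In tdTomato-EGFP+ cells most of the members past 2-fold were higher after injury. Igfbp3, Igfbp4, Igfbp5 and Igfbp6 were past 2-fold higher than in uninjured cells, 4 of the 8 members tested against 9.52% of 11434 genes. The lower one was Igf1r, against 16.98% of genes. Cluster 4 held 8 uninjured and 18 injured tdTomato-EGFP+ cells. Within these the level before and after injury was 294 and 367 CPM for Igfbp4 and 4078 and 5026 CPM for Igfbp5. It was 11.2 and 131.5 CPM for Igfbp3 and 2204 and 4478 CPM for Igfbp6. The part of the number of fibroblast-like cells in the 4 group differences was not tested. The difference between the sorts in their injury response was past 2-fold for Igfbp6 and Igfbp7, both negative, that is, lower in tdTomato+EGFP+ cells, as for 20.6% of the 12081 genes tested. No member had a positive one, against 4.57% of genes. The median over the members was 0.75 for the uninjured sorts, -0.99 for the sorts at 3 days, -0.14 and 1.35 for injury in tdTomato+EGFP+ and tdTomato-EGFP+ cells, and -1.17 for the difference between these. Over all genes tested the medians were 0.01, -0.32, -0.59, -0.20 and -0.39. With TMM factors (edgeR) in place of totals the last 4 came to 0.05, 0.07, 0.07 and -0.01. DESeq2 size factors gave 0.19, 0.20, 0.03 and 0.16. CPM thus gave lower centres than both, most of all for injury in tdTomato+EGFP+ cells. Both kinds of factor are made to centre most genes, so these medians cannot tell which scale is right.

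**Figure D2:**
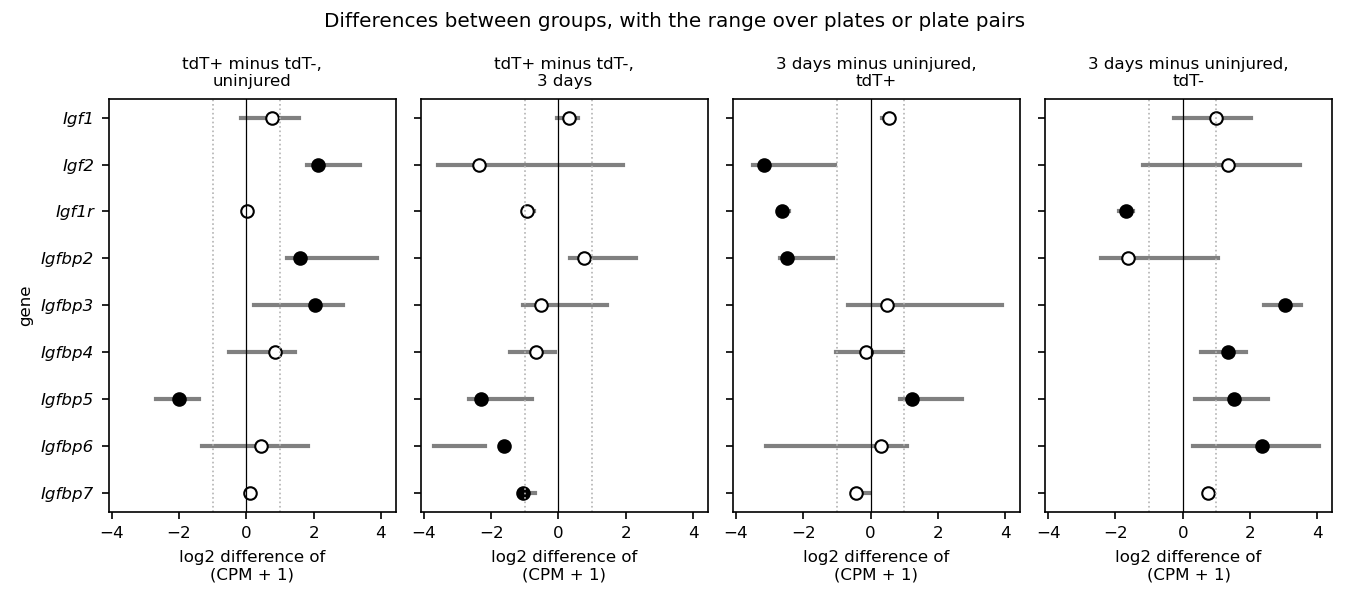
Difference of log2(CPM + 1) for each member between the sorts (left panels) and after injury (right panels): points are group values, filled where past 2-fold, bars span the plates or plate pairs, and dotted lines mark a difference of 1. After injury Igf1r lies below -1 over all plate pairs in both sorts, and Igfbp3 in tdTomato-EGFP+ cells lies between 2.42 and 3.52.

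Of the ligands, Igf1 (chromosome 10, 87858265 to 87937042, plus strand, GENCODE M21 on GRCm38) encodes the factor through which growth hormone acts and which many tissues also make locally. Uninjured tdTomato+EGFP+ cells held 61.9 CPM (59.4 to 64.4), with 64.6 and 59.9 CPM on plates 209 and 213, and uninjured tdTomato-EGFP+ cells 36.3 CPM (34.1 to 38.7), with 71.6 and 19.7 CPM. At 3 days the levels were 90.4 CPM (87.1 to 93.8) in tdTomato+EGFP+ and 72.8 CPM (69.5 to 76.2) in tdTomato-EGFP+ cells, with plates at 90.9 and 82.3 and at 60.2 and 84.3 CPM. Both injured tdTomato+EGFP+ plates lay above both uninjured ones, while the tdTomato-EGFP+ plates overlapped. The injury differences of 0.54 (plate pairs 0.35 to 0.59) and 0.98 (-0.25 to 2.04) were not past 2-fold, and neither was any other comparison of Igf1 between whole groups by CPM. With other scalings the injury differences came to 1.21 and 1.26 (TMM factors) and to 1.35 and 1.22 (DESeq2 size factors), of which only the last was not past 2-fold, since it did not keep its sign on all plates. Without the cell with most Igf1 counts the tdTomato+EGFP+ difference was 1.07. The tdTomato-EGFP+ difference was 1.84 without plate 209, 0.02 without plate 213, 1.19 without plate 211 and 0.71 without plate 215. Without plate 209 the uninjured sorts differed by 1.56 and the injury responses by -1.25, both past 2-fold.

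What differed more in Igf1 was the number of cells that carried it. In uninjured tdTomato+EGFP+ cells 24.8% of cells had a count and 3 cells gave 50% of all counts, whereas at 3 days 72.95% of cells had a count and 15 cells gave 50%. With each cell thinned to 20000 counts the shares were 13.4% (7.995 to 20.6) and 59% (48.7 to 68.7). In tdTomato-EGFP+ cells the thinned shares were 9.78% before and 27.5% after injury. For comparison, 2.73% and 5.26% of cells in clusters 2 and 3 had a count at this depth. The Igf1 counts of tdTomato+EGFP+ cells lay mostly in different clusters before and after injury. In uninjured cord the 26 fibroblast-like cells held 2340 of the 2376 counts, and at 3 days cluster 1 held 2383 of the 2815 counts. Within cluster 4 the level in tdTomato+EGFP+ cells was 265 CPM before and 89.9 CPM after injury, and in cluster 1 at 3 days it was 92.1 CPM. Microglia and macrophages are another known source of Igf1, and the summed level of their 8 markers, all with a count in each group, was 82.9, 29.2, 14.04 and 28.3 CPM in uninjured tdTomato+EGFP+, uninjured tdTomato-EGFP+ and the 2 injured groups in that order. Their part in the Igf1 values was not tested.

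Igf2 (chromosome 7, 142650766 to 142666816, minus strand) is the imprinted, mainly fetal ligand that also persists in adult meninges and vessels. Uninjured tdTomato+EGFP+ cells held 285 CPM (280.1 to 291), at 284 and 287 CPM on the 2 plates, and tdTomato-EGFP+ cells 63.8 CPM (60.8 to 66.9), at 26.3 and 81.5 CPM. The plates did not overlap, and the difference was 2.14 (1.80 and 3.38 on the plates). At 3 days tdTomato+EGFP+ cells held 30.5 CPM (28.6 to 32.6), at 24.6 and 135.3 CPM, which is 3.18 lower on the log2 scale, a value of -3.18 (-3.49 to -1.06). Injured tdTomato-EGFP+ cells held 163 CPM (157.7 to 168), but 66.2% of it stood in 1 cell of plate 211, and without that cell the level was 55.6 CPM. The plates of that group, at 303 and 35.2 CPM, spanned those of the injured tdTomato+EGFP+ cells, and the sorts at 3 days differed in opposite directions on the 2 plates. Antisense RNAs to both ligands, Igf1os and Igf2os, were below 1 CPM in each group, and since the use of strand in counting is not stated their reads cannot be told from those of the ligands.

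Within cluster 4 the Igf2 level of tdTomato+EGFP+ cells was 792 CPM (774 to 811) in uninjured cord, carried by 18 of 26 cells, and 76.4 CPM (68.8 to 84.6) at 3 days, carried by 13 of 19. In clusters 2 and 3 the uninjured sorts differed in the same direction, with 103.03 against 65.7 CPM and 185 against 41.3 CPM. After injury the few tdTomato-EGFP+ cells left in those clusters held 13.4 CPM (5 cells) and 8.05 CPM (14 cells). Igf2 thus stood lower at 3 days in each of these 3 pools that could be compared, and higher in the fibroblast-like tdTomato-EGFP+ cells, at 797 against 204 CPM, where 1 cell gave the whole uninjured value and 71.8% of the injured one came from 1 cell.

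The receptor Igf1r (chromosome 7, 67952827 to 68233668, plus strand) is the tyrosine kinase that binds both ligands. Uninjured tdTomato+EGFP+ cells held 354 CPM (348 to 359.9), at 328 and 373 CPM on the plates, and uninjured tdTomato-EGFP+ cells 345 CPM (338 to 353), at 333 and 351 CPM. At 3 days the levels were 56.02 CPM in tdTomato+EGFP+ cells, at 55.7 and 60.8 CPM, and 106.9 CPM in tdTomato-EGFP+ cells, at 93.4 and 119.2 CPM. Injured and uninjured plates did not overlap in either sort. The injury differences were -2.64 (-2.72 to -2.41) in tdTomato+EGFP+ and -1.68 (-1.90 to -1.48) in tdTomato-EGFP+ cells, and -1.97 and -1.40 with TMM factors. The 2 sorts differed by 0.03 in uninjured cord, and the difference of the injury responses, -0.96, was not past 2-fold.

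Igf1r moved with the clusters that carried endothelial transcripts. Clusters 2 and 3 held 71.5% and 70.8% of the uninjured cells of the 2 sorts and 94.9% and 95.4% of their Igf1r counts, but 2.46% and 18.4% of the injured cells, with 2.35% and 34.1% of the counts. Inside these clusters the level was 452 and 421 CPM in uninjured tdTomato+EGFP+ and tdTomato-EGFP+ cells and 214 CPM in the 19 injured tdTomato-EGFP+ cells. Outside them it was 69.9 and 73.3 CPM before injury and 55.04 and 84.9 CPM after it. The summed level of the 5 endothelial markers, all counted in each group, moved the same way. It was 4166 and 4324 CPM in the uninjured sorts and 399 and 1745 CPM in the injured ones. Cdh5 did not follow, with injury differences of -0.15 in tdTomato+EGFP+ and -0.81 in tdTomato-EGFP+ cells and a sort difference of 0.84 at 3 days. The other markers lay between -3.76 (Ly6c1) and -5.21 (Flt1) for injury in tdTomato+EGFP+ cells. Pecam1, which joins endothelial cells to one another, was at 540.3, 483, 24.3 and 198 CPM in the same order.

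In cells without a count of Pecam1 the Igf1r level was 90.5 and 87.6 CPM in the uninjured sorts and 51.01 and 77.5 CPM at 3 days. In cells with a count it was 417 and 401 CPM, and 74.2 and 146.9 CPM at 3 days. The gap between uninjured and injured cells was therefore smaller in cells without a count of Pecam1 than in the whole groups, in both sorts. The share of cells with Igf1r, thinned to 20000 counts, was 81.1% and 75% in uninjured and 49% and 62.7% in injured tdTomato+EGFP+ and tdTomato-EGFP+ cells. The part of the endothelial transcripts in the Igf1r difference was not tested.

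**Figure D3:**
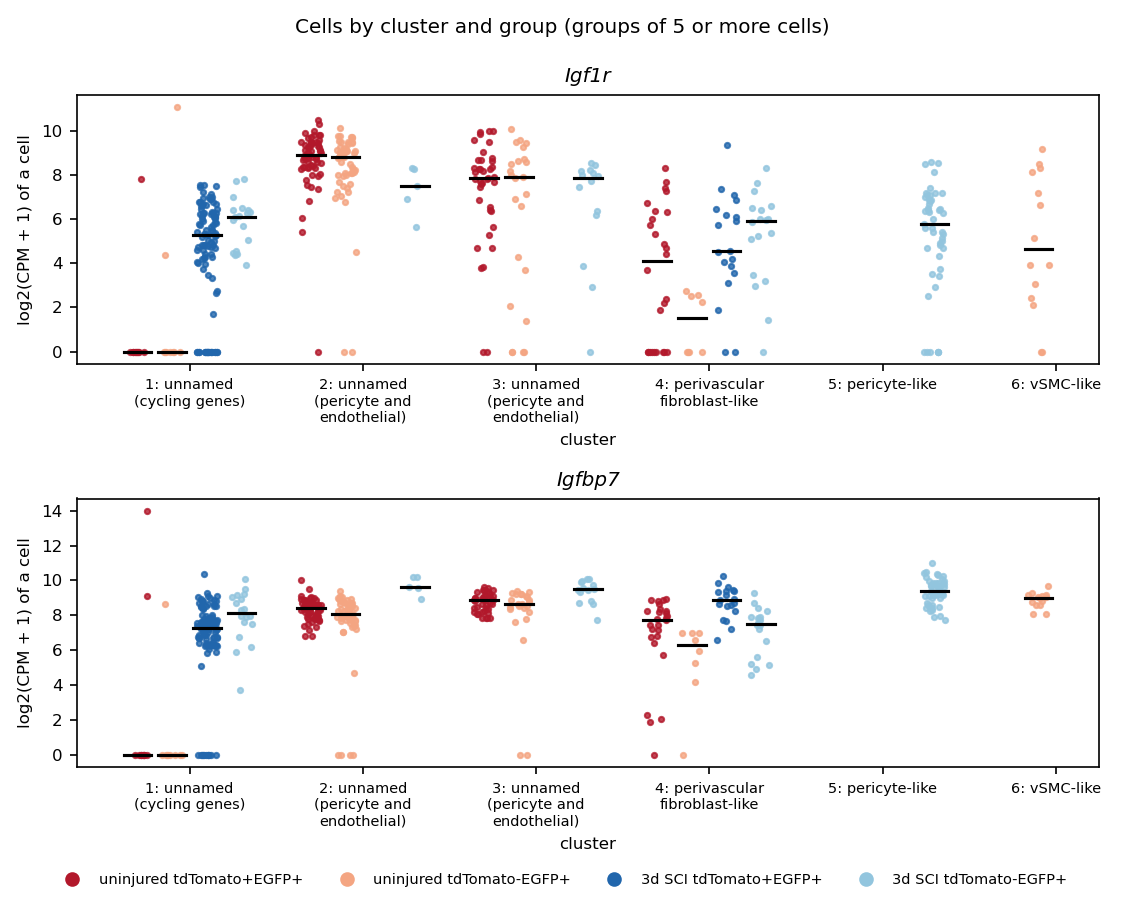
Igf1r and Igfbp7 in single cells as log2(CPM + 1), by cluster and group (groups of 5 or more cells): points are cells and black lines medians. For Igf1r the uninjured cells of clusters 2 and 3 sit mostly above the cells of clusters 1 and 4, and for Igfbp7 the injured tdTomato-EGFP+ cells of clusters 2, 3 and 4 have higher medians than the uninjured ones.

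Among the binding proteins, Igfbp5 (chromosome 1, 72857932 to 72874884, minus strand) binds both IGFs and extracellular matrix. Uninjured tdTomato+EGFP+ cells held 85.7 CPM, at 101.9 and 73.98 CPM on plates 209 and 213, and tdTomato-EGFP+ cells 348 CPM, at 659.7 and 199.9 CPM. At 3 days tdTomato+EGFP+ cells held 202 CPM, at 186 and 494 CPM on plates 211 and 215, and tdTomato-EGFP+ cells 1002 CPM, at 1173 and 846 CPM. In uninjured and in injured cord every tdTomato-EGFP+ plate lay above every tdTomato+EGFP+ plate. The sort differences were -2.01 (-2.68 and -1.42 on the plates) and -2.30 (-2.65 and -0.78), and the injury differences 1.23 (0.86 to 2.72) in tdTomato+EGFP+ and 1.52 (0.36 to 2.55) in tdTomato-EGFP+ cells. Without plate 211 the sort difference at 3 days was -0.78, without plate 213 neither injury difference was past 2-fold, and in tdTomato-EGFP+ cells the injury difference was also lost with thinning or without the cell richest in Igfbp5.

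Igfbp6 (chromosome 15, 102144362 to 102149511, plus strand) encodes the binding protein with a marked preference for IGF2. The uninjured sorts held 227 and 168 CPM, and their plates overlapped, at 139.5 and 290.4 CPM in tdTomato+EGFP+ against 353 and 80.98 CPM in tdTomato-EGFP+ cells. At 3 days the levels were 282 CPM in tdTomato+EGFP+ cells, at 296 and 32.8 CPM on the plates, and 874 CPM in tdTomato-EGFP+ cells, at 1354 and 439 CPM. The injured sorts did not overlap, with a difference of -1.63 and plate values of -2.19 and -3.70, which lie beyond the group value because the 2 plates weigh differently in each sort. The injury difference in tdTomato-EGFP+ cells was 2.37 (0.31 to 4.05), or 1.85 with thinned cells but not of 1 sign on all plate pairs, and the response differed between the sorts by -2.06 (-5.53 to -0.86). Without plate 213 that difference was -0.30, and 1 cell gave 40.6% of the injured tdTomato+EGFP+ counts.

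Igfbp7 (chromosome 5, 77349240 to 77408041, minus strand) encodes a vessel-associated member with low affinity for IGFs. It was counted in most cells of each group, in 92.4% to 96.1% of cells thinned to 20000 counts. The uninjured sorts held 350.4 and 323 CPM, at 343 and 356 and at 313 and 328 CPM on the plates. At 3 days tdTomato+EGFP+ cells held 261 CPM, at 256 and 334 CPM, and tdTomato-EGFP+ cells 543 CPM, at 543 CPM on both plates. The uninjured plates lay close together, and both injured tdTomato-EGFP+ plates lay above all others. The sorts at 3 days differed by -1.06 (-1.08 and -0.70), which was -0.68 with TMM factors and -0.70 without plate 211.

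The group levels of Igfbp7 hid its levels within clusters. In cluster 4, tdTomato+EGFP+ cells held 222 CPM before and 441 CPM after injury, and tdTomato-EGFP+ cells 55.2 and 181 CPM. In tdTomato-EGFP+ cells of cluster 2 it was at 285 CPM before and 691 CPM after injury (5 injured cells), and in those of cluster 3 at 426 and 673 CPM. Each of these 4 pools was higher at 3 days, although the tdTomato+EGFP+ group was lower by CPM, at -0.43 (-0.47 to -0.04), and higher with TMM factors, at 0.25. Cluster 1, which held 99 of the injured tdTomato+EGFP+ cells, stood at 208 CPM in them, and the pericyte-like cluster at 717 CPM. That cluster held no uninjured cell, and its 47 injured tdTomato-EGFP+ cells carried 56.1% of the Igfbp7 counts of their group.

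Igfbp3 (chromosome 11, 7206086 to 7213923, minus strand) encodes the main IGF carrier in plasma. Uninjured tdTomato+EGFP+ cells held 27.9 CPM of it, at 57.3 and 6.76 CPM on the plates, and uninjured tdTomato-EGFP+ cells 6.10 CPM, at 7.06 and 5.64 CPM. At 3 days the levels were 40.02 CPM, at 35.7 and 115.7 CPM, and 57.9 CPM, at 75.4 and 42.1 CPM. The difference of the uninjured sorts, 2.03, rested on 1 cell of plate 209 with 63.9% of the counts, without which the group level was 10.1 CPM, and on plate 213 the difference was 0.22. The injury difference in tdTomato-EGFP+ cells, 3.05 (2.42 to 3.52), was past 2-fold under all 12 alternatives that gave a value. Its thinned shares of cells were 4.35% before and 14.7% after injury, and 9.45% and 25% in tdTomato+EGFP+ cells.

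Igfbp4 (chromosome 11, 99041244 to 99054392, plus strand) encodes a binding protein that the protease PAPP-A cuts to release IGF. It was at 63.1 and 34.8 CPM in the uninjured sorts and at 57.1 and 90.7 CPM in the injured ones. In tdTomato-EGFP+ cells the uninjured plates, at 42.5 and 31.2 CPM, lay below the injured ones, at 62.5 and 116.4 CPM, with a difference of 1.36 (0.54 to 1.87) that fell short of 2-fold without plate 215 and without the cell with most counts. Igfbp2 (chromosome 1, 72824503 to 72852474, plus strand) encodes an IGF carrier abundant in the cerebrospinal fluid. Uninjured tdTomato+EGFP+ cells held 16.8 CPM of it, at 15.6 and 17.8 CPM on the plates, and the other groups below 5 CPM, so that no plate of another group reached these. The uninjured sorts differed by 1.60 (1.21 and 3.89 on the plates), which fell short of 2-fold with a pseudocount of 10 and with thinned cells. Of its 647 counts there, 640 stood in fibroblast-like cells, where the level was 72.5 CPM in uninjured and 6.04 CPM in injured tdTomato+EGFP+ cells and the cells with a count 16 of 26 and 4 of 19. The injury difference was -2.49 (-2.68 to -1.13), and in uninjured tdTomato-EGFP+ cells 1 cell held 99.2% of the counts.

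**Figure D4:**
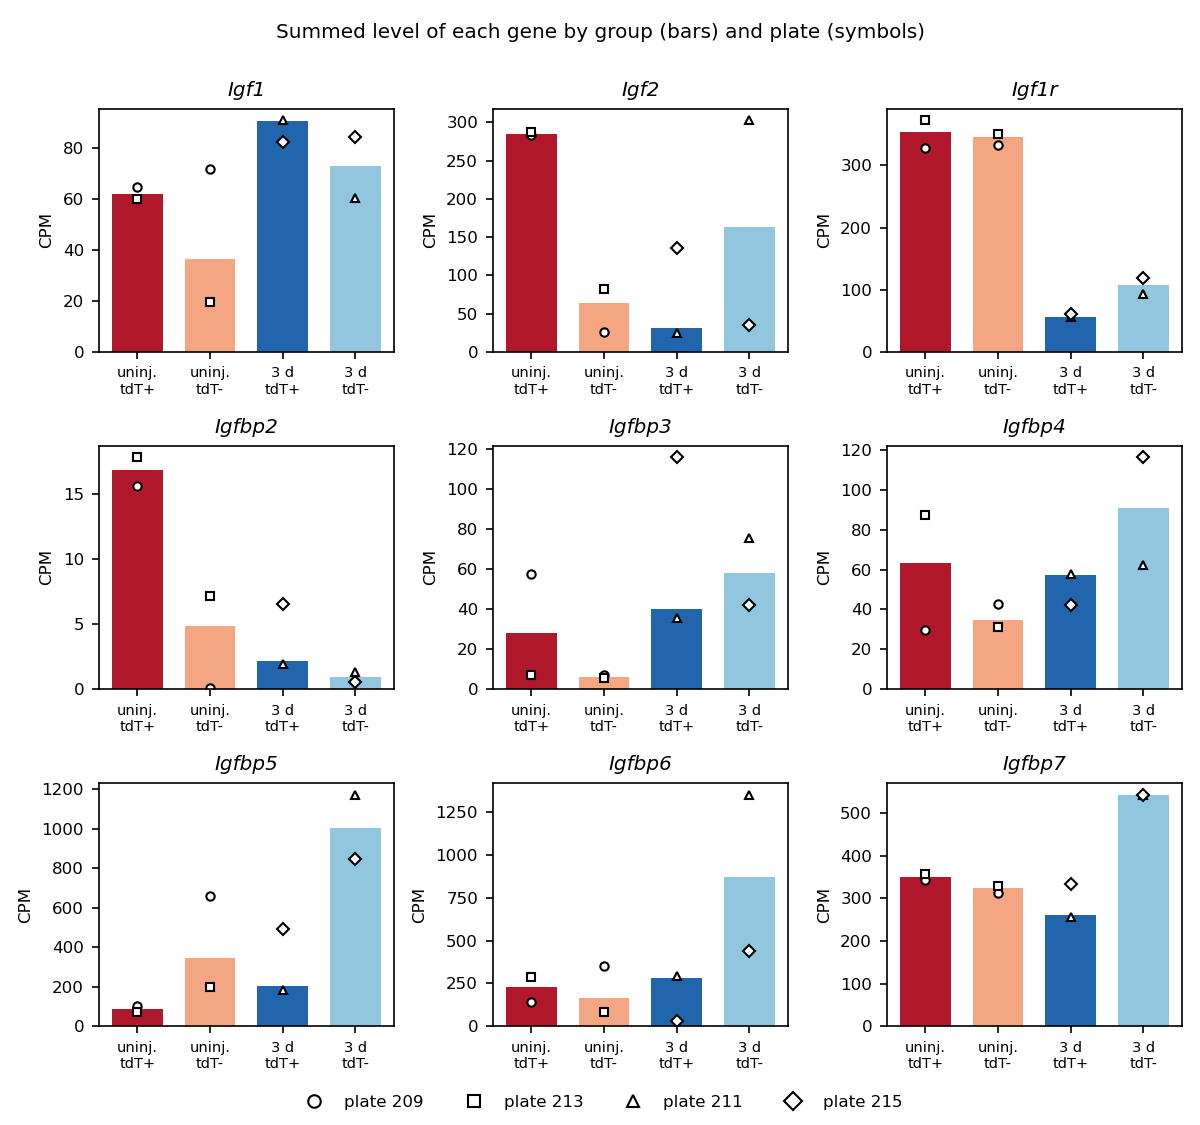
Level of each member in CPM (vertical axis from 0, scaled per gene) in the 4 groups: bars are the summed level of a group and symbols its plates. Plates of uninjured and injured cells do not overlap for Igf1r in either sort, and those of the sorts do not overlap for Igfbp5 at either time.

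Within the fibroblast-like cells the sorts could be compared at both times, by size alone. Igfbp5 and Igfbp6 were past 2-fold lower in tdTomato+EGFP+ cells in uninjured cord and at 3 days, as were 6.46% of the 9463 genes tested, and Igfbp7 was past 2-fold higher, as were 6.11%. Of the members, 8 were tested, since Igfbp2 was under 10 CPM at 3 days. For Igfbp5 the 26 tdTomato+EGFP+ cells of the uninjured cord held 363 CPM and the 8 tdTomato-EGFP+ cells 4078 CPM, and at 3 days the 19 and 18 cells held 318 and 5026 CPM. The differences were -3.49 and -3.98. By plate, tdTomato+EGFP+ cells were at 547, 274, 335 and 39.6 CPM on plates 209, 213, 211 and 215 and tdTomato-EGFP+ cells at 5237, 2871, 6523 and 3894 CPM. No plate of one sort reached the other, and 8 of 8 uninjured and 17 of 18 injured tdTomato-EGFP+ cells lay above the median tdTomato+EGFP+ cell. The plate values rest on few cells, with 5 and 3 uninjured tdTomato-EGFP+ cells on plates 209 and 213. On plate 215 the tdTomato+EGFP+ value was 11 counts, in 1 of 4 cells. At 3 days 1 cell gave 57.8% of the tdTomato+EGFP+ counts, and without it the level was 145.2 CPM.

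Igfbp6 differed the same way, at 983 against 2204 CPM (-1.16) in uninjured cord and 1450 against 4478 CPM (-1.63) at 3 days. Its tdTomato+EGFP+ cells were at 775, 1084, 1535 and 57.6 CPM on plates 209, 213, 211 and 215, and its tdTomato-EGFP+ cells at 2916, 1463, 7759 and 1995 CPM, higher on each plate. The tdTomato+EGFP+ value of plate 215 was 16 counts in 4 cells. Above the median tdTomato+EGFP+ cell lay 7 of 8 uninjured and 18 of 18 injured tdTomato-EGFP+ cells. That median cell stood at 815 CPM in uninjured cord and at 83.7 CPM at 3 days, although the summed level was higher at 3 days. There 1 cell gave 51.2% of the tdTomato+EGFP+ counts and 1 cell 27.2% of the tdTomato-EGFP+ counts. Without these cells the levels were 763 and 3382 CPM. Igfbp7 went the other way, at 222 against 55.2 CPM (1.99) and 441 against 181 CPM (1.28), and was higher in tdTomato+EGFP+ cells on each plate. In uninjured cord 18 of 26 tdTomato+EGFP+ cells lay above every tdTomato-EGFP+ cell, and at 3 days 7 of 19 did.

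Igf1 was lower in the tdTomato+EGFP+ fibroblast-like cells at both times, at 265 against 466 CPM (-0.81) and 89.9 against 253 CPM (-1.48), past 2-fold at 3 days. Igf2 and Igfbp3 differed past 2-fold at both times but with opposite signs. For Igfbp3 in uninjured cord, 1 tdTomato+EGFP+ cell gave 95.4% of the counts of that sort. Without it the level was 3.84 CPM, below the 11.2 CPM of tdTomato-EGFP+ cells, which came from 1 cell, so the sign was then that at 3 days. Igf1r was at 72.95 against 2.93 CPM in uninjured cells and 52.9 against 69.9 CPM at 3 days. Other genes separated the sorts within this cluster as well. Slc1a3, whose promoter drives the Cre, stood at 754 against 35.2 CPM in uninjured cord (tdTomato+EGFP+ against tdTomato-EGFP+) and at 663 against 21.8 CPM at 3 days. The leptomeningeal marker Slc47a1 stood at 28.9 against 734 CPM and then 0.624 against 1366 CPM. Of the 7 leptomeningeal markers, 1 was called raised in the cluster, and it was Slc6a13. Slc47a1 was among the top-ranked genes of the cluster, but too few of the cells had a count of it for that call. Over whole groups the summed level of the 7 went the other way from Slc47a1. It was 557 CPM in tdTomato+EGFP+ against 197 CPM in tdTomato-EGFP+ cells of uninjured cord, and 871 against 528 CPM at 3 days. The adventitial fibroblast gene Pi16 stood at 542 against 3110 CPM and then 97.4 against 2860 CPM. The part of these genes' differences in that of the binding proteins was not tested.

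**Figure D5:**
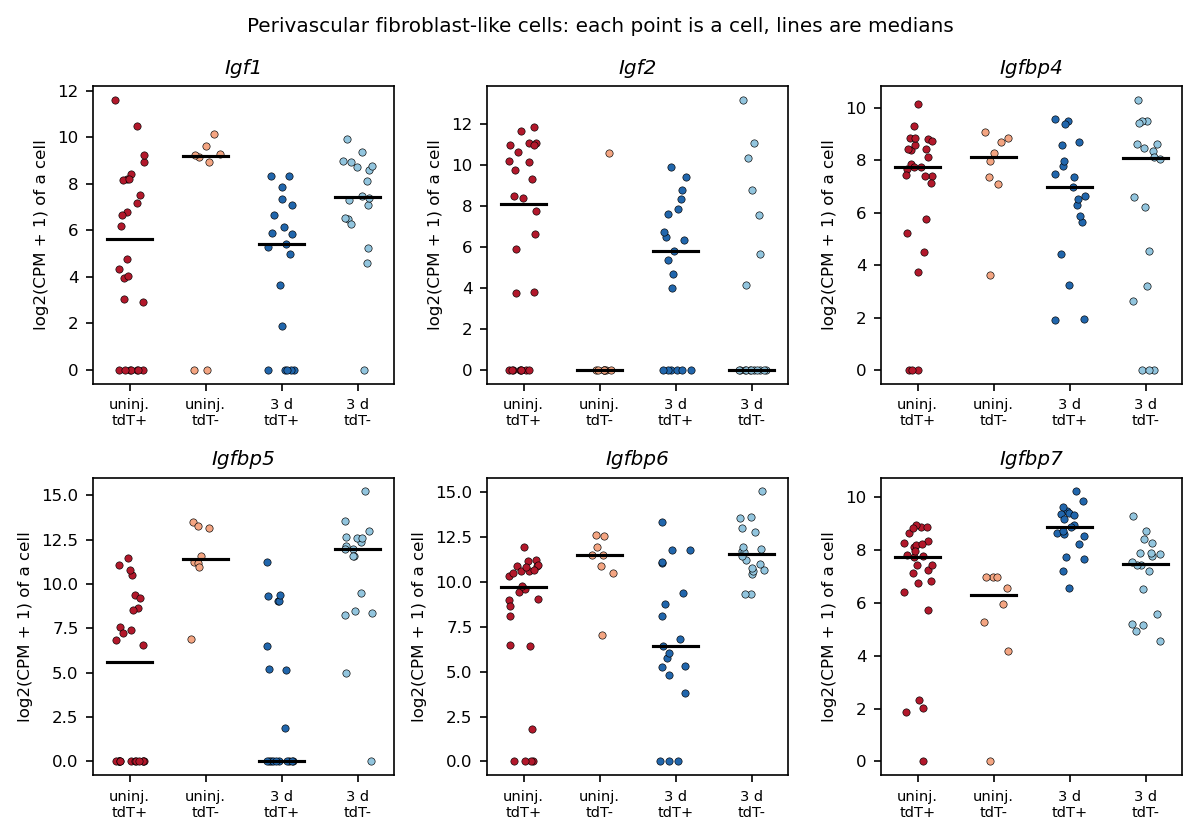
Igf1, Igf2, Igfbp4, Igfbp5, Igfbp6 and Igfbp7 in single cells of the fibroblast-like cluster as log2(CPM + 1), by sort and time: points are cells and lines medians. For Igfbp5 and Igfbp6 the median tdTomato-EGFP+ cell sits above the median tdTomato+EGFP+ cell at both times, and for Igfbp7 below it.

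Some cells had a count of several members. At 20000 counts per cell, 2 or more of Igfbp2 to Igfbp6 were counted in 21.3% of uninjured tdTomato+EGFP+, 11.96% of uninjured tdTomato-EGFP+, 32% of injured tdTomato+EGFP+ and 29.4% of injured tdTomato-EGFP+ cells. None of these 5 was counted in 66.1%, 77.2%, 31% and 52.9%. Among injured tdTomato-EGFP+ cells, 24 had both Igf1 and Igfbp6, which is 85.7% of the 28 with Igf1 and 77.4% of the 31 with Igfbp6. In injured tdTomato+EGFP+ cells both were counted in 15 cells, which is 25.4% of the 59 with Igf1 and 75% of the 20 with Igfbp6. In uninjured cord the corresponding shares were 64.7% and 47.8% in tdTomato+EGFP+ cells (11 cells with both) and 66.7% and 66.7% in tdTomato-EGFP+ cells (6 cells).

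The wider pathway was read from 26 genes, which were receptors, adaptors, proteases, their inhibitors and related genes. In uninjured cord none of the 17 tested was past 2-fold higher in tdTomato+EGFP+ cells, against 4.31% of all genes tested, and 1 was lower (H19), which is 5.88% against 3.61%. At 3 days 1 of 18 was higher (Irs2), 5.56% against 4.31%, and 7 were lower (Igf2r, Insr, Stc1, H19, Cd93, Pik3r1 and Foxo1), 38.9% against 17.9%. After injury 3 of 19 were higher in tdTomato+EGFP+ cells (Pappa, Stc1 and H19), 15.8% against 10.8%, and 6 lower (Igf2r, Insr, Igf2bp3, Cd93, Pik3r1 and Foxo1), 31.6% against 34.3%. In tdTomato-EGFP+ cells 1 of 17 was higher (Stc1), 5.88% against 9.52%, and 3 lower (Insr, Irs2 and Cd93), 17.6% against 16.98%. The injury responses differed for 8 of 19, with Irs2 higher in tdTomato+EGFP+ cells, 5.26% against 4.57%, and Igf2r, Insr, Stc1, Adamts1, Cd93, Pik3r1 and Foxo1 lower, 36.8% against 20.6%. The shares after injury in each sort lay near those of all genes and are no result about the list.

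Among these, Stc1, stanniocalcin 1, which inhibits the IGFBP protease PAPP-A, was at 2.37 and 2.79 CPM in the uninjured and 40.8 and 117.3 CPM in the injured tdTomato+EGFP+ and tdTomato-EGFP+ cells. Insr, the insulin receptor, was at 115.9 and 129.7 CPM before and 15.1 and 39.8 CPM after injury, lower in both sorts as was Igf1r. Igf2r, the receptor that clears IGF2, was at 76.2 and 136.01 CPM before and at 22.8 and 113.5 CPM after injury. Cd93, a vessel receptor for IGFBP7, was at 239 and 221 CPM before and 23.2 and 109.1 CPM after it. It thus moved with the summed level of the endothelial markers. H19, the untranslated RNA beside Igf2, had 2 counts in uninjured tdTomato+EGFP+ cells, and 1 cell held 97.1%, 71.5% and 49.2% of its counts in the other groups.

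Over 13 pools of 1 cluster and 1 group with 10 or more cells, each member past 2-fold somewhere was compared with 8325 genes by Pearson's r of log2(CPM + 1), as a description over pools that share plates. The patterns most like Igfbp6 were those of Scara5 (0.988), Mfap5 (0.980) and Pamr1 (0.961), and those most like Igfbp5 were Fgl2 (0.954), Sulf1 (0.938) and Col5a1 (0.924). For Igfbp4 they were Plekho2 (0.953), Bmp6 (0.946) and Pxylp1 (0.930). For Igf1r they were Dram2 (0.964), Trex1 (0.958) and Lmo7 (0.951). For Igfbp2 they were Kcnk2 (0.922), Cldn1 (0.905) and Inmt (0.900), for Igf2 Sgsm2 (0.900), Tppp3 (0.867) and Cd47 (0.866), for Igfbp3 Gask1b (0.909), Tro (0.824) and Vcam1 (0.819), and for Igfbp7 Malat1 (0.833), Man2a2 (0.821) and Col4a2 (0.781). Among the members themselves Igf1 ran closest to Igfbp6, at 0.90, and Igf1r ran against Igfbp5, at -0.69.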

How the data were processed

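Single cells were sorted by tdTomato and EGFP and processed by Smart-seq3. The authors deposited 1 table of counts per gene and cell, made from reads aligned to mouse (mm10 in the submitters' processing notes). The aligner, the counter, the annotation and the use of strand are not given in the sources used here, nor is it said if reads or molecules were counted. Of 1968 columns, 1465 that match no sample label were not used. The 92 spike-in rows, 0.0314% of counts, were left out. Cells with at least 200 genes and under 20% mitochondrial counts were kept. Of these, 34 cells with a log-normalised Pecam1 value above 1 and above that of Pdgfrb were removed. A cell with Pecam1 above 1 but a higher Pdgfrb value was kept. The study also set an upper limit of 1200 genes, which was tried as an alternative. The series text gives 5 days for the injured cells, and the labels, which give 3 days, were followed.

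Counts were summed per group, plate or cluster and scaled to CPM with pandas 2.3.3, and intervals were made with SciPy 1.17.1. Clusters were made in Seurat 5.3.0 from 2000 variable genes, without the members and pathway genes, 20 components and a resolution of 0.5. A marker counted as raised at a log2(CPM + 1) difference of 0.5 or more with a count in 50% of the cells of a cluster. TMM factors came from edgeR 4.0.16 and size factors from DESeq2 1.42.0, for scaling alone, and neither was used for a test. Doublets were not called. All 9 members are named, as are the pathway genes past 2-fold and the 3 genes most like each member past 2-fold. The scripts were tested on simulated data. The members and lists were chosen with earlier results of these data known. Other alternatives were a pseudocount of 10, thinning to 20000 counts, leaving out each plate or the cell with most counts, and resolutions of 0.3 and 0.8.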

Additional observations from a re-analysis of the deposited data

Results flagged for a closer look

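Igfbp7 moved in opposite directions after injury in the 2 sorts. The injury difference was -0.43 in tdTomato+EGFP+ and 0.75 in tdTomato-EGFP+ cells, with opposite signs on all 4 plate pairs. The difference between the sorts was not tested, and with TMM factors the tdTomato+EGFP+ value was 0.25 and the 2 signs were the same.

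Igf1r was at 523 CPM in the 34 cells removed for Pecam1, above its level in each of the 4 groups. Igfbp7 was at 364 CPM in these cells and Igf1 at 2.88 CPM. On plates 209 and 213, 12 and 9 of the removed cells were uninjured tdTomato+EGFP+ and 6 and 5 uninjured tdTomato-EGFP+. Another 2 were injured tdTomato-EGFP+ cells, and none were injured tdTomato+EGFP+. The kept uninjured tdTomato+EGFP+ cells of cluster 2 held 531 CPM of Igf1r.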

How the results depend on the processing

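With the study's upper limit of 1200 genes, 10 to 13 shallow cells were left per group and none of the injured tdTomato-EGFP+ cells, so that no value could be had for the sorts at 3 days, injury in tdTomato-EGFP+ cells or the difference of the responses. Of the 4 members past 2-fold in the uninjured sorts it left 0, and it turned Igfbp5 there to 5.05 and, for injury in tdTomato+EGFP+ cells, Igf2 to 2.61, Igf1r to 0.64 and Igfbp5 to -5.05. The number of members past 2-fold in the sorts at 3 days was 3 and became 5 without plate 215. For injury in tdTomato-EGFP+ cells it was 5 and became 3 with thinned cells and 3 without the cell with most counts. For the difference of the responses it was 2 and became 1 with TMM factors, 1 with DESeq2 size factors, 4 with thinned cells, 5 without plate 209, 4 without plate 213 and 5 without plate 215. Within fibroblast-like cells it was 3 and became 1 at a resolution of 0.3, where Igfbp7 at 3 days turned to -0.20, and 5 without the cell with most counts. At a resolution of 0.3 there were 3 clusters and the fibroblast-like one held 207 cells, against 71 in the main clustering, so the cells compared were not the same. Igfbp6 between the injured sorts, and Igf1r and Igfbp3 for injury in tdTomato-EGFP+ cells, were past 2-fold under each alternative that gave a value. The causes of these changes were not tested. No paired analysis was possible because the labels give no replicate numbers that pair samples and the results come from no test. Both sorts stood on each plate, and the differences within plates are given beside the results. Depth limits the tdTomato+EGFP+ cells of plate 215 most, with a median of 14770 counts in 34 cells.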
